A study of Homo sapiens with 10 samples.

Results

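The regions described here are peaks of eGFP-tagged IRF4 ChIP-seq that were listed in replicate 1 and overlapped no peak listed in replicate 2. They are unreplicated calls and were not checked against input or motifs here, so they are called peaks and not binding sites. They are the replicate 1 peaks on chromosomes 1 to 22 and X with a score of at least 150 that overlap no replicate 2 peak by even 1 base. The rule was met by 1080 of the 4563 replicate 1 peaks with such a score on these chromosomes. The other 3483 overlapped a replicate 2 peak and are called shared peaks below. The members were selected on their replicate 1 score and on the absence of an overlap. Neither is therefore a finding, and the values of both are given as a description with no test.

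The study used 501Mel, an established human melanoma cell line. ChIP-seq recovers the DNA fragments bound to a protein, here IRF4 carrying enhanced green fluorescent protein, in 2 biological replicates without a further treatment named in the labels. How the tagged protein was expressed, and at what level, is not given in the sources used here. The series also holds 2 input samples and RNA-seq of cells given siIRF4 or siCTRL, which were not analysed here.

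IRF4 is a transcription factor of the interferon regulatory factor family. It binds DNA weakly alone and more tightly next to partners such as PU.1 or BATF with JUN, and it is best known from B and T cells. In pigment cells it acts with MITF, the master regulator of the melanocyte lineage, on the pigment enzyme gene TYR. A ChIP-seq peak is a stretch where fragments pile up above the background.

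Replicate 1 listed 7568 peaks and replicate 2 listed 12831, of which 12798 lay on chromosomes 1 to 22 and X. The lists begin at different scores, 100.01 in replicate 1 and 150.01 in replicate 2, so a site that scored under 150 in replicate 2 counts as unmatched. There were 2.80 replicate 2 peaks for each replicate 1 peak of 150 or more. The files hold no read counts, so the depth is unknown. Each list is a single ChIP, so no test between the replicates was possible. Intervals in parentheses are 95% exact binomial intervals for percentages and exact order-statistic intervals for medians. They cover counting over peaks only, and neighbouring peaks are not independent.

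Most of the replicate 1 only peaks stood low in the list. Their scores ran from 150.1 to 3100, with a median of 200.3 (194.4 to 204.4), against 271.7 (265.2 to 277.1) for the shared peaks. Between 150 and 200, 539 of 1414 peaks were in replicate 1 only, which is 38.1% (35.6 to 40.7). The share was 24.5% (22.3 to 26.7) between 200 and 300, 12.7% (10.8 to 14.9) between 300 and 500, and 5.37% (3.60 to 7.67) between 500 and 1000. The unmatched share therefore fell stepwise over the first 4 score classes.

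At scores of 1000 or more the share was higher again, with 17 of 90 peaks, or 18.9% (11.4 to 28.5), in replicate 1 only. The rise rests on these 17 peaks, which are not 17 separate places. Of them, 13 lay in groups of at least 3 members with gaps of at most 100 kb. Without peaks within 2 Mb of the longest run on their chromosome with no peak of either list, the share was 14.3% (7.35 to 24.1), or 11 of 77. In 10 classes with equal numbers of peaks, the class of best scores began at 564.4 and held 8.32% unmatched peaks, close to the smallest share of 7.68%. The shared peaks of 1000 or more had high scores in replicate 2 as well, with a median of 1188 (957 to 1359), and 0 of 73 scored under 200 there. Among shared peaks of 150 to 200 in replicate 1, the median replicate 2 score was 266 (254.6 to 276.4), and 25.1% scored under 200.

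**Figure D1:**
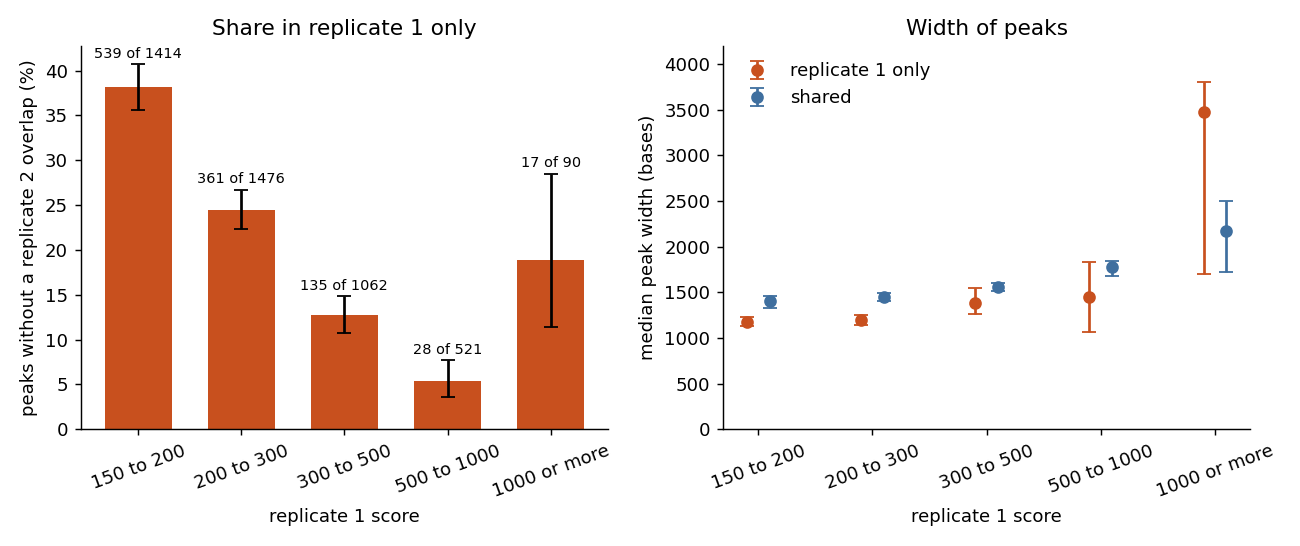
Left, the percentage of replicate 1 peaks without a replicate 2 overlap in 5 classes of replicate 1 score, with 95% exact intervals and the counts above the bars. Right, the median width in bases of replicate 1 only and shared peaks in the same classes, with order-statistic intervals; the share falls to 5.37% between 500 and 1000 and is 18.9% at 1000 or more.

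The edges of the rule can be seen from the peaks on either side of them. The 3 members just above the threshold scored 150.10, 150.17 and 150.18, on chromosomes 14, 1 and 14. The 3 unmatched peaks just under it scored 149.95, 149.78 and 149.65, on chromosomes 9, 9 and 2. Of the peaks scoring 140 to 150, 50.1% had no overlap, against 45.3% of those scoring 150 to 160. The share without overlap thus showed no jump at the threshold.

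Few members were near misses of the overlap rule. The member nearest to a replicate 2 peak lay on chromosome 1 from 22348553 to 22350349, with 34 bases between them. The next were on chromosome 3 from 183892337 to 183893640, with a gap of 75 bases, and on chromosome 6 from 134273984 to 134275014, with a gap of 81 bases. Each of these 3 also had another replicate 1 peak within 384 bases. The shared peaks with the shortest overlaps, on chromosomes 4, X and 9, were covered for 177, 240 and 245 bases. The median shared peak was covered over 95.7% of its width. Only 30 members lay within 500 bases of a replicate 2 peak, and 15 of these 30 had a shared replicate 1 peak within 500 bases too.

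The replicate 1 only peaks were narrower than the shared peaks in the score classes under 300. Over all scores their median width was 1220.5 bases (1185 to 1257), against 1516 bases (1486 to 1549) for the shared peaks. Between 150 and 200 the medians were 1178 (1135 to 1229) and 1406 (1334 to 1457) bases. Between 200 and 300 they were 1197 (1144 to 1257) and 1446 (1409 to 1489) bases, so the difference was also present within a narrow range of scores. The intervals overlapped between 300 and 500, at 1388 (1260 to 1543) and 1555 (1511 to 1608) bases, and also between 500 and 1000. A wider peak has more bases that can overlap, so the rule and the width are not independent. Of the peaks narrower than 1000 bases, 36.2% (32.9 to 39.6) were in replicate 1 only, and of those from 3000 to 5000 bases 13.0% (9.16 to 17.7) were.

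At 1000 or more the order of the medians was the opposite. The 17 members had a median width of 3473 bases (1698 to 3805), and the 73 shared peaks one of 2177 bases (1723 to 2498), with overlapping intervals. Widths above 3000 bases were found in 10 of these 17 members and in 18 of the 73 shared peaks. Among all members, 40 (3.70%) were wider than 3000 bases, against 262 (7.52%) of the shared peaks.

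The widest members were not the strongest. The widest, of 7259 bases, lay on chromosome 20 from 61864607 to 61871865 and scored 258.1. The next, of 7030 bases, lay on chromosome 19 from 604926 to 611955 and scored 150.3. The third, of 6653 bases, lay on chromosome 22 from 45015734 to 45022386 and scored 167.3. Across the 1080 members, score and width had a Spearman's rho of 0.125, and across the 3483 shared peaks one of 0.173, given as a description because both values come from the same pile of fragments.

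Replicate 1 only peaks lay in territory with fewer replicate 2 peaks. The rule itself favours this, because an overlap is likelier where replicate 2 peaks are dense, so the values are a description. A median of 6 (5 to 6) replicate 2 peaks had their centre within 500 kb of a member, against 9 (8 to 9) for a shared peak, whose own partner is among the 9. For 83 members (7.69%, 6.17 to 9.44) there was no replicate 2 peak within 500 kb. The gap from a member to the nearest replicate 2 peak had a median of 52373.5 bases (46584 to 58500). The gap from a shared peak to the nearest replicate 2 peak that it did not overlap had a median of 37414 bases (35346 to 39425). Within 10 kb such a peak was found for 16.3% (14.1 to 18.6) of the members and 23.7% (22.3 to 25.1) of the shared peaks.

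The spacing within replicate 1 differed little between both kinds of peak. The gap to the nearest other replicate 1 peak of any score had a median of 59000.5 bases (52562 to 65631) for members and 58430 bases (55160 to 62823) for shared peaks. Another replicate 1 peak lay within 100 kb of 64.4% (61.5 to 67.3) of the members and 64.1% (62.5 to 65.7) of the shared peaks. At short range the members were slightly ahead, with 6.94% (5.50 to 8.63) against 4.88% (4.19 to 5.65) within 1 kb, and the intervals overlapped. The members of the dense groups described below are part of this share. A shared peak of 150 or more lay within 10 kb of 64 members (5.93%) and within 100 kb of 385 members (35.6%).

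**Figure D2:**
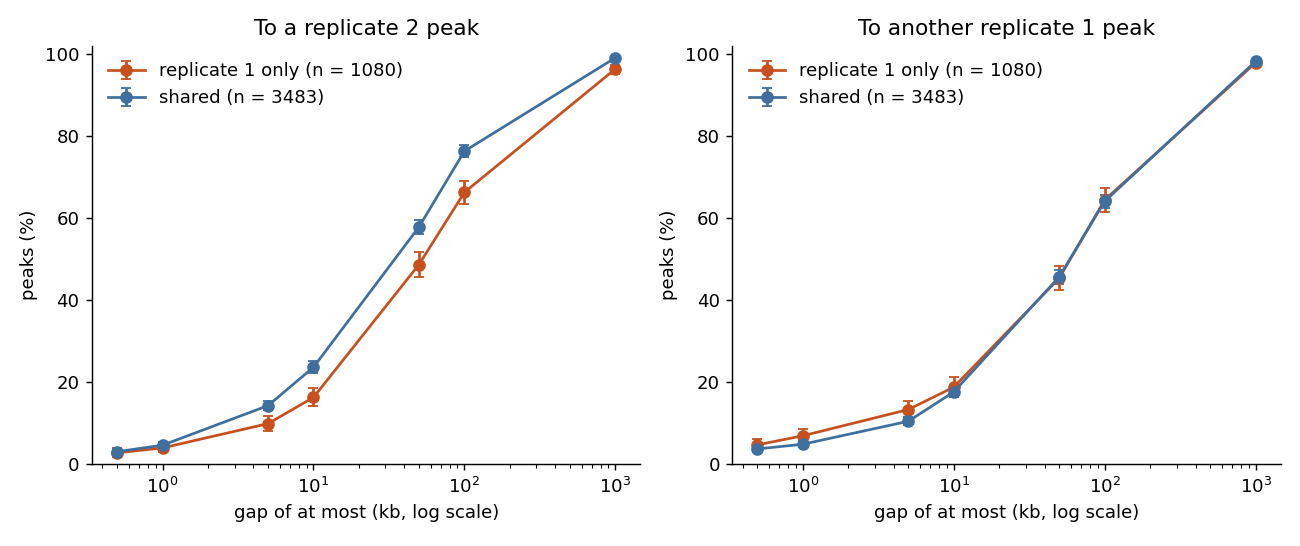
The percentage of replicate 1 only (n = 1080) and shared (n = 3483) peaks with a neighbour within a given gap in kb on a log scale, with 95% exact intervals. Left, to the nearest replicate 2 peak not overlapped, where the members lie lower (16.3% against 23.7% at 10 kb); right, to another replicate 1 peak of any score, where the curves run together from 10 kb on.

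The gap to replicate 2 was longer in the higher score classes of the members and not of the shared peaks. It had a median of 45404 bases between 150 and 200, 79297 bases between 300 and 500, 119608 bases between 500 and 1000 and 299186 bases (190361 to 665196) at 1000 or more. In the shared peaks the medians of the same classes lay between 30508 and 40395 bases. Of the 17 members of 1000 or more, 15 were over 100 kb from a replicate 2 peak. Of the 73 shared peaks, 12 were over 100 kb from the nearest replicate 2 peak that they did not overlap. The strongest members thus mostly stood where replicate 2 listed little. Over all 1080 members, which are mostly weak, rho between score and gap was only 0.103.

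The 10 best-scoring members show this position by position. The highest score of the replicate 1 list, 3100, was held by exactly 2 peaks, and the replicate 2 list reached 3146.65. Whether the score has an upper limit is not given in the sources used here. The score of 3100 was reached on chromosome 5 from 9914 to 13386, at 131058 bases from a replicate 2 peak. The same score was reached on chromosome 10 from 42397692 to 42401496, at 278926 bases from one. A score of 2675 was listed on chromosome 9 from 66832653 to 66836277, with a gap of 373655 bases. These 3 peaks were 3473, 3805 and 3625 bases wide, above the 75th percentile of 1638.75 bases for the members.

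Further down the order, chromosome 4 held a peak of score 1821 from 49097763 to 49102735, with a gap of 196505 bases to replicate 2. On chromosome 7, a peak from 61082828 to 61084112 scored 1800 and was 3042047 bases from replicate 2. On chromosome 6, one from 61912434 to 61914731 scored 1620 and was 2366799 bases away. These peaks on chromosomes 6 and 7 had no replicate 2 peak within 500 kb on either side.

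The remaining 4 of the 10 were on chromosomes 9, 4 and 12. The peak on chromosome 9 from 66822991 to 66826685 scored 1602 and lay 5967 bases from the chromosome 9 peak above. On chromosome 4, a peak from 68263819 to 68266905 scored 1312 and another from 49109001 to 49113321 scored 1216. The peak on chromosome 12 from 34845810 to 34847507 scored 1240, at 669898 bases from replicate 2. Of the 10, 8 had another replicate 1 peak within 10 kb, the exceptions being the peak at the start of chromosome 5 and the one on chromosome 4 at 68263819.

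**Figure D3:**
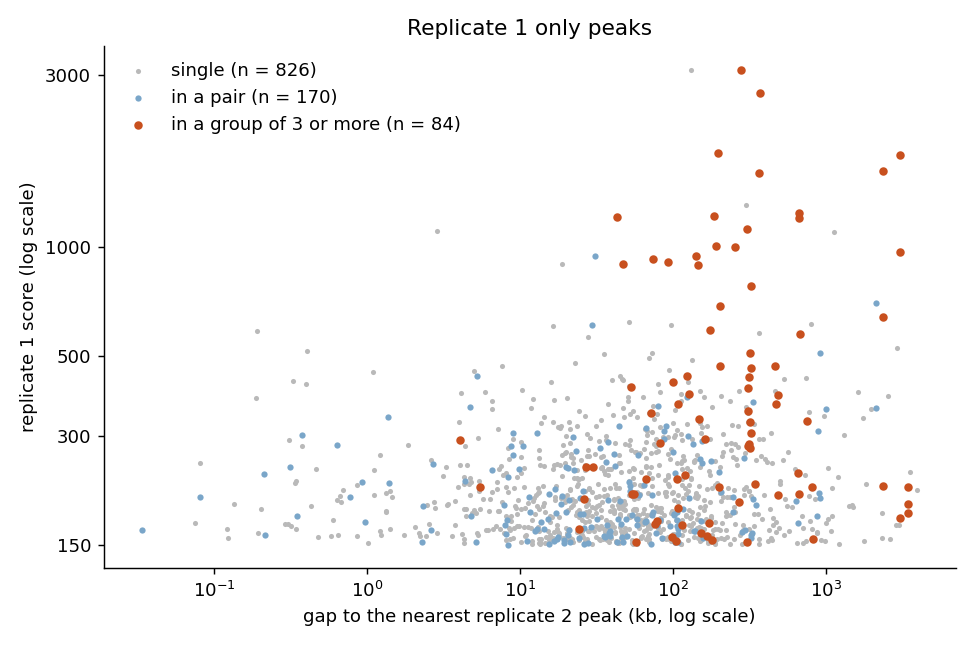
Replicate 1 score against the gap to the nearest replicate 2 peak in kb (both axes log) for the 1080 replicate 1 only peaks, coloured by the number of members in their group. Peaks in groups of 3 or more (84) make up most of those at 1000 or more and lie mainly to the right, with a median gap of 202493.5 bases.

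Members were joined into groups where the gap between neighbours was at most 100 kb. By this measure 826 members stood alone, 170 were in 85 pairs and 84 (7.78%, 6.25 to 9.54) were in 17 groups of 3 or more. Of the shared peaks, 705 (20.2%, 18.9 to 21.6) were in 185 groups of 3 or more, a list 3.23 times as long, which by itself brings more neighbours within 100 kb. The percentage in groups also moved with the score. Among members the percentage in groups of 3 or more was 3.34% (1.99 to 5.23) between 150 and 200 and 42.9% (24.5 to 62.8) between 500 and 1000. It was 76.5% (50.1 to 93.2) at 1000 or more. In the shared peaks it lay between 18.7% and 21.7% in the 4 classes under 1000 and was 34.2% (23.5 to 46.3) above.

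The grouped members were also stronger and wider than the rest. Their median score was 317.6 (236.2 to 408.3), against 196.8 (191.2 to 201.6) for the 996 members alone or in pairs. Their median width was 1522 bases (1291 to 1741), against 1201.5 bases (1164 to 1240). Their median gap to replicate 2 was 202493.5 bases, against 46499 bases. Over all grouped members the median gap to the next member was 1620 bases, but the groups differed in density. Peaks covered from 2.00% of the span, in the group of 241.8 kb on chromosome 1, to 74.5%, in that of 20.9 kb on chromosome 4. Of the 17 groups, 15 held no replicate 2 peak between their first and last base. Members overlap no replicate 2 peak by the rule, so only the stretches between them could hold one. Each of the 185 groups of shared peaks held at least 2, its own partners included. The rule brings this about, so it is no contrast between the kinds of group.

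The largest group lay on chromosome 4 from 49093151 to 49193570. Its 13 members scored between 153.2 and 1821, with a median of 468.5, and covered 31.2% of a span of 100.4 kb. The next lay 440.5 kb further on, from 49634056 to 49654960, where 8 members scoring 277.9 to 1121 covered 74.5% of 20.9 kb. The third was on chromosome 10 from 42355385 to 42409774, with 7 members scoring 152.1 to 3100. A group of equal number on chromosome 2, from 89830341 to 89880107, scored 207.1 to 1214. In all 4, replicate 1 listed 1 or 2 further peaks of 100 to 150, no shared peak and no replicate 2 peak.

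**Figure D4:**
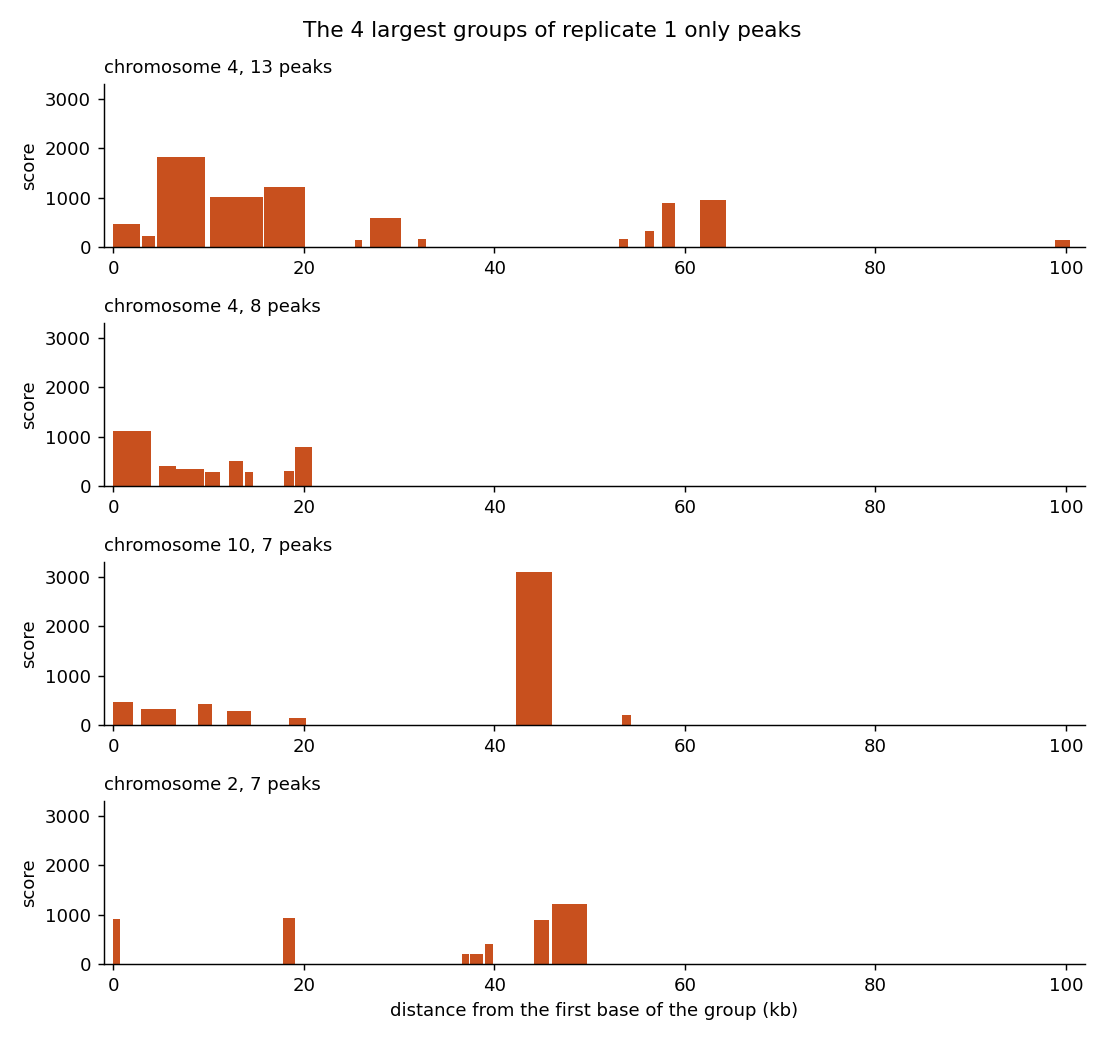
The 4 groups with most replicate 1 only peaks, drawn to scale from the first base of each group in kb; bar height is the replicate 1 score and bar width the peak width. The groups on chromosome 4 hold 13 and 8 peaks and those on chromosomes 10 and 2 hold 7 each, with a highest score of 3100 on chromosome 10.

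Of the other 13 groups, 3 held 5 or 6 members. That on chromosome 20 had 6, scoring 169.6 to 440.6, and that on chromosome 12 had 5, scoring 207.5 to 1240. Another on chromosome 2, from 132980468 to 133005251, had 5, scoring 157.3 to 424.0. The remaining 10 held 3 or 4 members each. The groups with a replicate 2 peak inside were among them, on chromosome 1 from 28754456 to 28996273 with 3 and on chromosome 7 from 99097147 to 99157276 with 1. Their best members scored 292.8 and 245.3. Weak groups without a replicate 2 peak inside were found too. The best members were lower still, at 227.45 on chromosome 9 from 136113446 to 136215870 and 215.9 on chromosome 11 from 51573219 to 51593631.

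Many groups of members bordered on long runs without a peak of either list. Of the 17 groups, 8 had such a run of at least 3 Mb on 1 side, against 2 of the 185 groups of shared peaks. This measure was added after the groups had been seen. The 8 groups were on chromosomes 2, 4, 6, 7, 10, 11, 12 and 20, and the runs measured from 3053477 to 3612782 bases. On chromosome 12 the group from 34832922 to 34854334 was followed by 3267400 bases without a peak. On chromosome 20 the group from 26262502 to 26319622 was followed by 3219791 bases. On chromosome 7 the group from 61078922 to 61085830 was preceded by 3363181 bases. Gene, repeat and centromere annotations were not used here, so what these runs are was not tested.

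Chromosome starts gave a further position shared by members. There were 4 members that began within the first 20 kb, and 0 of the shared peaks and 0 of the 12798 replicate 2 peaks did. They began at 9914 on chromosome 5 (score 3100), 9890 on chromosome 18 (score 1003), 9885 on chromosome 7 (score 614.4) and 9908 on chromosome 1 (score 377.8). These starts differ by at most 29 bases. These peaks, and the limit of 20 kb, were chosen after their positions were seen. Within the first 200 kb there were 11 of the 1080 members, 2 of the 3483 shared peaks and 13 of the 12798 replicate 2 peaks. Replicate 2 was thus not absent from this wider range, though members were more frequent there for the length of their list. Apart from the starts of chromosomes 5 and 18, the groups of 3 or more and the peak on chromosome 4 at 68263819, members of 1000 or more were found at 2 positions, 9838438 on chromosome 21 (score 1108) and 61838958 on X (score 1101).

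Of the 45 members of 500 or more, 25 were in groups of 3 or more and 18 were outside such groups and the first 20 kb. These 18 had a median of 5 replicate 2 peaks within 500 kb, from 0 to 37, and 4 of them had none. Among them, a peak on chromosome 12 from 93826 to 95858 scored 898.1, with a gap of 18768 bases to replicate 2. On chromosome 3, a peak from 48754148 to 48755214 scored 620.8, with a gap of 52053 bases. On chromosome 16, one from 4320940 to 4324308 scored 605.5, with a gap of 16346 bases. On chromosome 5, one from 115907810 to 115910105 scored 584.8 at only 190 bases from a replicate 2 peak and 96 bases from another replicate 1 peak. These 4 examples were picked after their values were known. They had between 6 and 13 replicate 2 peaks within 500 kb, above the median of the 18, so they stand for the part of these peaks with replicate 2 peaks around them.

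The 3 members farthest from replicate 2 were weak, though not all distant members were. The largest gap, 3942586 bases, belonged to a peak of score 212.2 on chromosome 9 from 42818839 to 42819448. The next, 3543033 bases, belonged to one of score 237.9 on the same chromosome from 41936202 to 41937451. The third, 3459856 bases, belonged to one of score 183.1 on chromosome 11 from 51592037 to 51593631, in a group of 3. The 83 members without a replicate 2 peak within 500 kb had a median score of 207.9, close to the 200.3 of all members. Of these 83, 17 were in groups of 3 or more and 11 were on X. The 83 also included 5 of the 17 members of 1000 or more. The peak of score 1800 on chromosome 7, at 3042047 bases from replicate 2, was 1 of these 5.

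The share of unmatched peaks differed between chromosomes. Over all 23 chromosomes it was 23.7% (22.4 to 24.9). It was highest on chromosome 21, with 21 of 44 peaks (47.7%, 32.5 to 63.3), and chromosome 18, with 35 of 76 (46.1%, 34.5 to 57.9). On X it was 34.5% (26.0 to 43.7; 41 of 119) and on chromosome 11 it was 30.0% (23.8 to 36.7; 62 of 207). On these 4 chromosomes the interval lay above the overall value. It lay below on chromosomes 1 (19.5%, 16.0 to 23.3), 3 (18.9%, 14.9 to 23.5) and 6 (16.6%, 12.7 to 21.2). Without the peaks within 2 Mb of the longest peak-free run of their chromosome, the overall share was 23.3%. The intervals of chromosomes 1 (16.3 to 23.7) and 3 (14.7 to 23.5) then held it, and that of chromosome 6 did not. No test was made of these 23 shares.

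The shares on these chromosomes were also taken within score classes. The mean of the shares in the 3 score classes under 500, each counted equally, was 47.3% on chromosome 21, 47.5% on chromosome 18 and 35.3% on X, against 21.3% on chromosome 1. At scores of 200 or more, where the overall share was 17.2%, it was 44.4% (25.5 to 64.7) on chromosome 21 and 40.4% (27.0 to 54.9) on chromosome 18. On X it was then 21.0% (12.7 to 31.5) and on chromosome 11 it was 21.3% (14.8 to 29.0), and both intervals held the overall share. Chromosomes 4 (25.3%, 18.5 to 33.2) and 9 (22.2%, 14.8 to 31.2) stood above X at these scores. The interval of chromosome 4 lay above the overall share, and that of chromosome 9 held it. The replicate 2 list held 2.02 peaks for each replicate 1 peak of 150 or more on chromosome 21, 1.93 on chromosome 18 and 1.75 on X, against 3.44 on chromosome 1 and 2.80 overall. Low ratios were not particular to these chromosomes: the ratio was 1.96 on chromosome 14, with an unmatched share of 29.3%, and 2.15 on chromosome 4, with 28.6%. Chromosome 22 had a ratio of 4.28 and a share of 26.9%. The part of the ratio in the unmatched shares was not tested. Of the 35 members on chromosome 18, 4 formed the group at its start, from 9890 to 159490, and of the 59 on chromosome 4, 21 were in the groups described above.

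**Figure D5:**
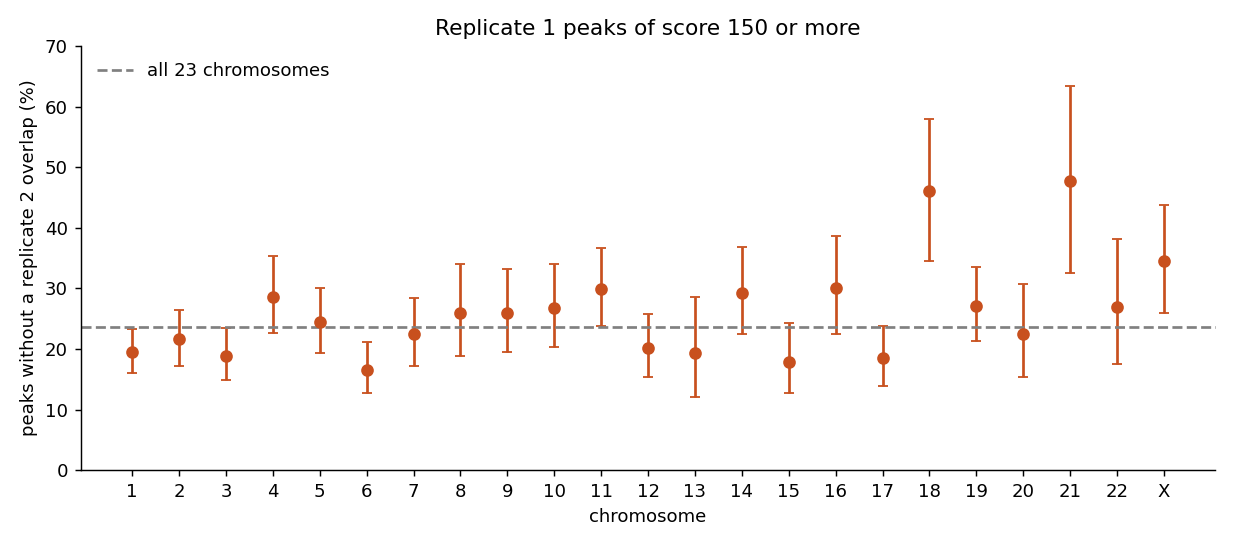
The percentage of replicate 1 peaks of score 150 or more without a replicate 2 overlap on each chromosome, with 95% exact intervals; the dashed line is the 23.7% of all 23 chromosomes. Chromosomes 18 and 21 stand highest, at 46.1% and 47.7%, with wide intervals because they hold 76 and 44 peaks.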

How the data were processed

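The data were 2 peak lists of eGFP-IRF4 ChIP-seq in 501Mel cells, 1 per replicate and not pooled. Each gives a position, a name beginning with MACS and a score; the score is the authors' deposited value, its definition, the caller's version and the input used are not given in the sources used here, and it served only to rank and filter peaks. Per the submitters' processing notes, Bowtie2 and kallisto were used and the builds were hg19 and GRCh38, without roles; the contigs have hg19 names. Coordinates are counted from 1.

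Overlaps (at least 1 base), gaps between nearest ends, groups (gaps of at most 100 kb) and exact intervals were computed with Python 3.11.15, pandas 2.3.3 and scipy 1.17.1, and tested on simulated lists against bedtools 2.31.1. Replicates are single lists, so no p-value is given. Named peaks are the 10 best-scoring members, the 3 widest, the 3 nearest to and 3 farthest from replicate 2, the 3 largest groups, and 3 at each limit of the rule; any further peak was picked once its values were known. The members were chosen with earlier results of these data known. A gene annotation and sequence in hg19 were not used here, so genes, motifs and the RNA-seq tables were not joined to the peaks.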

Additional observations from a re-analysis of the deposited data

How the results depend on the processing

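The number of replicate 1 only peaks, 1080, became 2847, 541 and 180 with replicate 1 scores of at least 100, 200 and 300, and 2673 when centres had to lie within 100 bases. Their percentage, 23.7%, became 37.8%, 17.2% and 10.8% at those scores, 58.6% by centres, 27.7% with an overlap of 50% of both peaks, 35.3% against replicate 2 scores of 200 or more and 21.3% when gaps up to 5000 bases counted as shared. At scores of at least 100, 200 and 300 the median width was 1091, 1271 and 1441.5 bases and the median gap to replicate 2 was 45845, 61204 and 95820.5 bases. That gap was 46499 bases without the groups of 3 or more, a setting added after the data were seen. The 16.3% within 10 kb of replicate 2 became 11.1% at scores of at least 300, and 3.98% and 48.7% for 1 and 50 kb. Members with another member within 100 kb, 23.5%, became 36.7% and 17.0% at scores of at least 100 and 200, and 7.87% and 63.7% for 10 and 1000 kb. In 10 equal score classes the lowest, the smallest and the best class held 43.5%, 7.68% and 8.32%.

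At scores of at least 200 the unmatched share was 12.3% on chromosome 1, 16.1% on 2, 14.7% on 3, 16.5% on 5, 15.3% on 7, 18.4% on 10, 21.3% on 11, 14.4% on 12, 16.8% on 14, 20% on 16, 13.4% on 17, 19.9% on 19, 14.7% on 20 and 21.0% on X, each under its interval at 150. Of 103 recomputed values, 61 stayed within the interval of the reported value or, for the number of peaks, within 1.5 times it. Shares of single chromosomes, many with wide intervals, made up 46 of the 103 and 32 of the 61. No paired analysis was possible because the results come from no test. Leaving out a replicate was not possible, since the rule needs both lists. The planned motif counts and the comparison of genes near peaks between siIRF4 and siCTRL were not run. The lists give no read counts, so what depth limits is unknown, and sites of replicate 2 under 150 were not analysed here.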

Other observations

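Peaks on the Y chromosome and on unplaced or unlocalized contigs are outside the rule. Replicate 1 listed 6 peaks of 150 or more on the Y chromosome, of which 4 overlapped no replicate 2 peak, with scores from 208.8 to 668.7. It listed 18 on the contigs, of which 13 overlapped none, with scores from 154.7 to 953.9.

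The longest run without a peak of either list was also taken on each chromosome, and peaks within 2 Mb of it were counted. They made up 5.19% (3.94 to 6.68) of the replicate 1 only peaks, 3.07% (2.52 to 3.70) of the shared peaks and 2.97% of the replicate 2 peaks. Within 5 Mb the intervals overlapped, at 9.07% (7.43 to 10.9) of the replicate 1 only peaks and 7.38% (6.53 to 8.30) of the shared peaks. Without the peaks within 2 Mb the replicate 1 only share was 23.3%. Among members of 1000 or more, 6 of 17 were within 2 Mb, against 7 of 73 shared peaks of such scores. On several chromosomes, such as 4 and 10, the longest run was not beside the groups of members described above. This count was added after the data were seen.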
